A study of Mus musculus with 12 samples.

Results

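The genes described here encode 9 components of the insulin signaling pathway, namely Insr, Irs1, Irs2, Pik3r1, Akt1, Akt2, Foxo1, Foxo3 and Trib1. They were selected by gene symbol from the 36047 genes with a transcript in the liver data. All 9 were among the 14670 genes whose estimated read counts passed the low-count filter, so each one was tested. With dietary sulfur amino acid restriction (SAAR), averaged over both fat levels, 1 of the 9 was called in the edgeR fit, beside 6.92% of all genes tested. This was Akt1, which rose by 0.29 on the log2 scale (SE 0.079). The call was lost when most single mice were left out. It was also lost in some other ways of processing, such as with the level of pancreatic genes as a covariate. Pik3r1 missed the threshold of an adjusted p of 0.05 narrowly and was called by DESeq2. The averaged values of Irs1 and Irs2 (above 0) and of Foxo3 and Trib1 (below 0) did not pass the threshold.

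Insulin binds a tyrosine kinase receptor, which phosphorylates docking proteins that recruit phosphoinositide 3-kinase (PI3K). The lipid made by PI3K brings AKT kinases to the membrane, and AKT phosphorylates FOXO transcription factors and so keeps them out of the nucleus. In the liver this pathway restrains glucose output and raises lipid synthesis, and most of its regulation acts on protein phosphorylation, which mRNA levels do not show.

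Livers came from 12 male C57Bl/6J mice, each fed 1 of 4 diets for 7 days, with 3 mice per diet. The diets crossed regular fat (RF) or high fat (HF) with a control (Ctrl) or a SAAR amino acid mixture, giving RF.Ctrl and RF.SAAR at regular fat and, at high fat, HF.Ctrl and HF.SAAR. All 4 diets were free of cysteine, and the SAAR diets also held less methionine, with glutamic acid added to balance nitrogen. The mice were briefly without food before euthanasia, and polyadenylated RNA of whole liver was sequenced. The comparisons ask whether mRNA of the pathway differs under SAAR at each fat level, and whether fat content alters that difference.

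Total estimated counts per mouse lay between 16203094 and 21230092. The summed level of 5 hepatocyte genes was 65639 to 86851 CPM (counts relative to the normalized library size) over the 12 mice. All RF.SAAR mice were narrowly below all RF.Ctrl mice in this sum, at up to 72303 and from 72412 CPM, whereas the HF groups overlapped. Most of the sum was Alb. Taken singly, Alb, Apoa1, Ttr, Hnf4a and Cps1 each overlapped between the RF groups. The summed level of 28 pancreatic acinar genes ranged from 21.7 to 18719 CPM and exceeded 1000 CPM in RF.Ctrl mouse 1, HF.Ctrl mice 1 and 2, and HF.SAAR mice 2 and 3. Islet genes summed to at most 6.36 CPM, in HF.SAAR mouse 3. Bile duct genes summed to between 42.92 and 62.0 CPM in the Ctrl mice and to between 35.2 and 42.89 CPM in the SAAR mice. Most of this sum was Spp1, at 36.06 to 48.8 CPM in the Ctrl mice and 28.8 to 35.2 CPM in the SAAR mice. The other bile duct genes, Krt7, Krt19, Epcam and Sox9, overlapped between Ctrl and SAAR mice. The sum of erythroid genes was also lower in every RF.SAAR mouse (up to 279.8 CPM) than in every RF.Ctrl mouse (from 428 CPM). This sum overlapped between the HF groups, as did Hbb-bs and Hba-a1. Alas2 did not overlap at either fat level, and at high fat it was 99.5 to 121 CPM in HF.Ctrl and 40.2 to 49.4 CPM in HF.SAAR. Among all genes tested, 17.9% were without overlap between the HF groups. The part of these levels in the results below was not tested, beyond the values given without the 5 mice above 1000 acinar CPM. The summed ranges of Kupffer, endothelial, stellate, adipocyte and muscle genes overlapped between Ctrl and SAAR at both fat levels. In whole liver, fewer cells of a type and less RNA per cell cannot be told apart.

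Levels of different genes were compared in TPM, an abundance that accounts for transcript length and is not normalized further between libraries. Akt2 was the most abundant of the 9, with a mean of 33.2 TPM over the 12 mice (SD 5.23), and it exceeded Akt1 in 12 of 12 mice. Akt1 followed with 17.4 TPM (SD 4.02) and was above Pik3r1 in 10 of 12 mice. Pik3r1, Trib1 and Insr had means of 11.4, 10.9 and 10.2 TPM and did not separate, since Pik3r1 exceeded Trib1 in 5 mice and Trib1 exceeded Insr in 7. Foxo3 (4.43 TPM) and Foxo1 (3.73 TPM) were lower, and Foxo3 was above Foxo1 in 9 of 12 mice. The docking protein mRNAs were the scarcest, with 2.14 TPM for Irs2 and 0.629 TPM for Irs1, and Irs2 exceeded Irs1 in 12 of 12 mice.

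**Figure D1:**
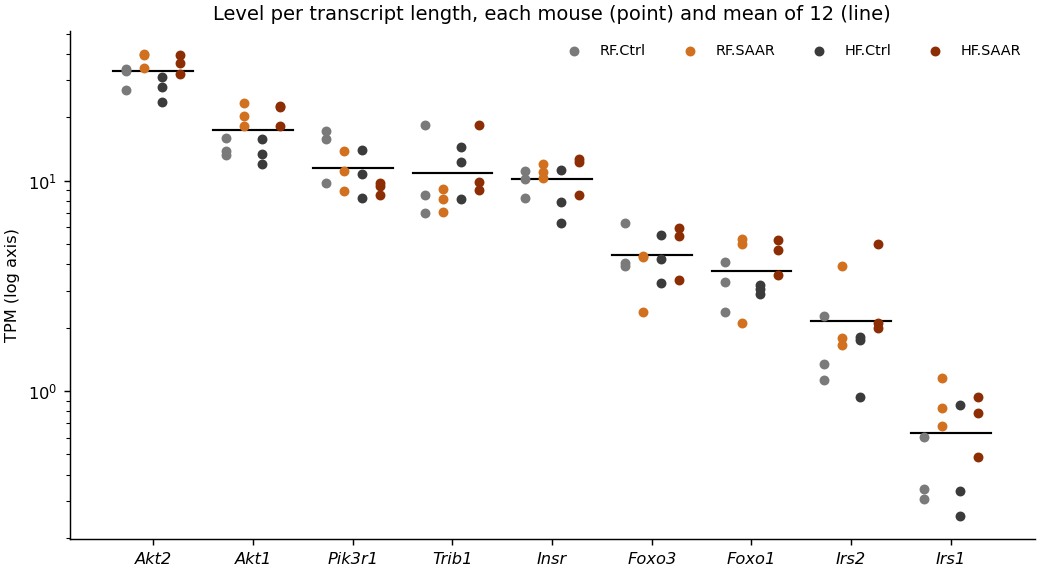
TPM of the 9 genes on a log axis, ordered by mean; points are mice colored by group and the line is the mean of 12 mice. Akt2 lies highest at a mean of 33.2 TPM and Irs1 lowest at 0.629 TPM, and Pik3r1, Trib1 and Insr overlap.

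Insr encodes the receptor itself and lies at chr8:3122061-3279617 on the minus strand of GRCm38. Its CPM, normalized between libraries, were 75.4, 82.5 and 92.6 in RF.Ctrl, 82.3, 78.3 and 79.2 in RF.SAAR, 77.0, 73.2 and 92.4 in HF.Ctrl, and 83.6, 74.5 and 80.4 in HF.SAAR. All 4 groups overlapped. Averaged over fat levels, Insr differed between SAAR and Ctrl by -0.043 on the log2 scale (95% interval -0.21 to 0.12, adjusted p = 0.832). Insr-201 held 99.1% of the gene's count, so the receptor forms that arise by splicing of a small exon have no separate value in these data.

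The insulin receptor substrates are the docking proteins, and in liver Irs2 is known to respond strongly to fasting. Both genes lie on minus strands, Irs1 at chr1:82233101-82291416 and Irs2 at chr8:10984681-11008458. The 250 bases before the RefSeq start of each gene (GRCm38.p6, minus strand, chr1:82291440-82291689 and chr8:11008930-11009179) are shown because each holds an E-box and the core of an insulin response sequence. A stretch before a start of Akt1 (chr12:112674885-112675134, minus strand) is shown because it alone holds TGTTTAC, the only FOXO pattern searched under that name. Capitals mark the patterns found, which are spelled out after the sequences.
Irs1: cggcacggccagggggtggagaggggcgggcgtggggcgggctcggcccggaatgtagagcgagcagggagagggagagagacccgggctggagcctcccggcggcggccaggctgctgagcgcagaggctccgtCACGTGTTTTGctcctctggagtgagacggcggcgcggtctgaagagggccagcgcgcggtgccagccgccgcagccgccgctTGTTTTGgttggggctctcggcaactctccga
Irs2: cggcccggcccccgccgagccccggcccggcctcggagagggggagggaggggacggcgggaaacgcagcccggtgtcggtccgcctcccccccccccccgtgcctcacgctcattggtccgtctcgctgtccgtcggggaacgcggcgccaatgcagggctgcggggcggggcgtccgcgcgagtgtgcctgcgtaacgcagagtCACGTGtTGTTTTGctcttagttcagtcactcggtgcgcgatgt
Akt1: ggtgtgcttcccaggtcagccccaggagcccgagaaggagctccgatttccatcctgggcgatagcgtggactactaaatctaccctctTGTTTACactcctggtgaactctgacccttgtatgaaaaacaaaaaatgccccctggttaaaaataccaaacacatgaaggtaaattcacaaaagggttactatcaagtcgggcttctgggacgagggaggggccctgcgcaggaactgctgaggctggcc

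Each pattern was searched on both strands of all 32851 RefSeq windows of 300 bases, which reach from 250 bases before to 50 after a start. A FOXO site, TGTTTAC, occurred in 3.65% of the windows. The core of an insulin response sequence, TGTTTTG, occurred in 6.28%. An E-box, CACGTG, occurred in 7.15%, and an ATF4 site, TGATGNAA, in 3.97%. In Irs2, the E-box began 44 bases and the insulin response core 37 bases before the start. In Irs1, the E-box began 115 bases before the start and shared its last 2 bases with an insulin response core at 111 bases, and another such core began at 32 bases. The Akt1 window holds the FOXO site at 161 bases before the start at 112674884, whereas the window of Akt1-201, which starts at 112674276, holds none of the 4 patterns. Only 1 other match was found in the 12 windows of 7 of the genes, an ATF4 site written TTTCATCA at 85 bases before the start of Akt2 at 27605797. Insr and Trib1 had no entry. These matches describe letters and are not shown to be bound.

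Irs1 CPM were 3.09, 3.07 and 5.59 in RF.Ctrl and 8.37, 5.67 and 6.37 in RF.SAAR. At high fat they were 3.48, 3.0 and 7.68 in HF.Ctrl and 7.45, 4.50 and 5.98 in HF.SAAR. The RF groups did not overlap, although the gap between 5.59 and 5.67 CPM was narrow, and the HF groups did. Among all genes tested, 18.2% were without overlap between RF.SAAR and RF.Ctrl, and 17.9% between HF.SAAR and HF.Ctrl. The log2 fold change of Irs1 was 0.80 at regular fat (adjusted p = 0.345), 0.34 at high fat (adjusted p = 0.781) and 0.57 averaged over fat levels (SE 0.25, adjusted p = 0.220), so Irs1 was not called. Without HF.Ctrl mouse 3, the highest of its group, the averaged value was 0.84 (adjusted p = 0.0330), and without the 5 mice above 1000 acinar CPM it was 0.30 (adjusted p = 0.630).

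The count of Irs1 also depends on a gene on the other strand. Gm9747 (chr1:82233112-82235933, plus strand) lies wholly inside the last exon of Irs1, and 30.9% of the exon bases of Irs1 belong to both. The sources used here do not say that strand was kept, so reads from the shared stretch could be assigned to either gene. Gm9747 is named here after its values were seen. Its CPM were 3.26, 2.15 and 3.52 in RF.Ctrl, 4.10, 6.31 and 7.96 in RF.SAAR, 1.5, 3.89 and 2.80 in HF.Ctrl, and 5.68, 4.81 and 4.62 in HF.SAAR, so that all 6 SAAR mice were above all 6 Ctrl mice. Among all genes tested, 4.30% separated the 6 SAAR from the 6 Ctrl mice in either direction. Gm9747 alone was called in the averaged comparison, at 0.96 on the log2 scale (SE 0.23, adjusted p = 0.0222). Counted as 1 gene, Irs1 and Gm9747 together had a log2 fold change of 0.73 averaged over fat levels (SE 0.18, adjusted p = 0.0259), 0.91 at regular fat (adjusted p = 0.108) and 0.56 at high fat (adjusted p = 0.385). The sum passed the test with a smaller fold than Gm9747 alone, and Irs1 alone did not pass it.

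Irs2 had the largest spread of the 9 genes relative to its mean in both SAAR groups. Its CPM were 8.18, 8.80 and 15.4 in RF.Ctrl, 9.38, 24 and 9.24 in RF.SAAR, 13.2, 8.06 and 11.8 in HF.Ctrl, and 12.3, 13.4 and 27.3 in HF.SAAR. A single mouse stood far above the other 2 in each SAAR group. The averaged log2 fold change was 0.54 (SE 0.33, adjusted p = 0.402), and leaving out each mouse moved it from 0.24, without RF.SAAR mouse 2, to 0.71. It was 0.31 without HF.SAAR mouse 3 and 0.14 without the 5 mice above 1000 acinar CPM. Without RF.SAAR mouse 2 the value at regular fat was -0.21 in place of 0.40. Of the 31-base stretches of Irs2, 2.13% also occur in other genes, among them 9530052E02Rik on the opposite strand. That gene was not among the quantified genes, so its level could not be analysed.

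Pik3r1 (chr13:101680563-101768217, minus strand) encodes the regulatory subunits of PI3K that bind the docking proteins and hold the catalytic subunit. Its CPM were 72.4, 44.4 and 67.2 in RF.Ctrl and 42.8, 38.3 and 53.5 in RF.SAAR. At high fat they were 66.6, 55.0 and 53.1 in HF.Ctrl and 45.8, 43.4 and 44.1 in HF.SAAR. Every HF.SAAR mouse was below every HF.Ctrl mouse, whereas RF.Ctrl mouse 2 lay among the RF.SAAR mice. The log2 fold change was -0.45 at regular fat (SE 0.17, adjusted p = 0.247), -0.39 at high fat (SE 0.17, adjusted p = 0.353) and -0.42 averaged over fat levels (SE 0.12, adjusted p = 0.0532). The averaged value missed the threshold narrowly, and DESeq2, which called 9.03% of genes in this comparison, called it (adjusted p = 0.0188). Leaving out each mouse gave -0.51 to -0.35, with adjusted p from 0.00982 to 0.136, and it was called without RF.Ctrl mouse 2 or RF.SAAR mouse 3. Without the 5 mice above 1000 acinar CPM it was -0.27 (adjusted p = 0.539), and with library size alone it was -0.25 (adjusted p = 0.189). The long transcript Pik3r1-202 held 89.4% of the count and differed by -0.38 (SE 0.13, adjusted p = 0.272 over 36098 transcripts). Scarcer forms were not uniform, and none was called. Pik3r1-201 (4.76% of the count) and Pik3r1-204 (1.61%) had averaged values of -1.85 and -1.12 (adjusted p = 0.167 and 0.386). The retained-intron form Pik3r1-206 (4.23%) had 0.46 (adjusted p = 0.418).

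The AKT kinases relay the signal from the membrane, and Akt2 is the form most closely tied to glucose metabolism. Akt1 (chr12:112653821-112674884, minus strand) was 33.6, 38.7 and 36.5 CPM in RF.Ctrl and 44.9, 44.5 and 42.7 CPM in RF.SAAR. At high fat it was 38.4, 40.7 and 31.3 CPM in HF.Ctrl and 49.7, 40.6 and 45.7 CPM in HF.SAAR. The RF groups did not overlap, and at high fat HF.SAAR mouse 2 fell just below HF.Ctrl mouse 2. The means were 36.2 ± 2.55 CPM in RF.Ctrl, 44.0 ± 1.18 in RF.SAAR, 36.8 ± 4.89 in HF.Ctrl and 45.3 ± 4.58 in HF.SAAR (SD, n = 3 each). Akt1 rose by 0.29 on the log2 scale averaged over fat levels, or 1.22-fold (95% interval of the log2 value 0.12 to 0.46, adjusted p = 0.0427 by the edgeR quasi-likelihood test). Its values at the single fat levels were 0.28 (adjusted p = 0.278) and 0.30 (adjusted p = 0.252), neither called, and the difference between them was 0.019 (SE 0.16, adjusted p = 0.999). Akt1-201 held 97.9% of the count, and its averaged value was also 0.29 (SE 0.083), which was not called among transcripts (adjusted p = 0.151).

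Akt1 was 1 of 9 genes called in the averaged comparison, where 6.92% of all genes tested were called. None of the 9 was called at regular fat, where 1.49% of all genes were called, or at high fat, where 1.97% were, and DESeq2 called none of them there either. At an unadjusted p under 0.05 there were 4 of the 9 in the averaged comparison, 4 at regular fat and 2 at high fat, against 20.3%, 13.6% and 12.4% of all genes. The Akt1 call was lost when any mouse other than HF.Ctrl mouse 2 or HF.SAAR mouse 2 was left out, with adjusted p from 0.0310 to 0.121 over the 12 fits and log2 values from 0.24 to 0.33. Without the 5 mice above 1000 acinar CPM the log2 value was 0.44 (adjusted p = 0.0990). The bile duct sum differed by diet in the opposite direction to Akt1, being lower in all 6 SAAR mice than in the 6 Ctrl mice. The gap was narrow, from 42.89 CPM in RF.SAAR mouse 3 to 42.92 CPM in RF.Ctrl mouse 2. The part of this sum in the Akt1 result was not tested.

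Akt2 (chr7:27591552-27640826, plus strand) was steady. Its group means were 83.2 ± 4.91 CPM in RF.Ctrl, 82.3 ± 2.0 in RF.SAAR, 79.4 ± 2.25 in HF.Ctrl and 80.9 ± 3.59 in HF.SAAR (SD, n = 3 each), and all 12 mice lay between 76.7 and 87.5 CPM. The averaged difference between SAAR and Ctrl was 0.0059 (95% interval -0.13 to 0.14, adjusted p = 0.975). Akt2-214 and Akt2-201 held 57.4% and 28.2% of its count, and their averaged differences were 0.064 and -0.22 (adjusted p = 0.897 and 0.756). On the TPM scale its means were 31.4, 38.0, 27.5 and 35.95 in the same order, and the SAAR means were higher on that scale. Stretches of 31 bases that also occur in another gene made up 13.3% of Akt2, and the pseudogene Akt2-ps, which holds such stretches, was at most 0.268 CPM.

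**Figure D2:**
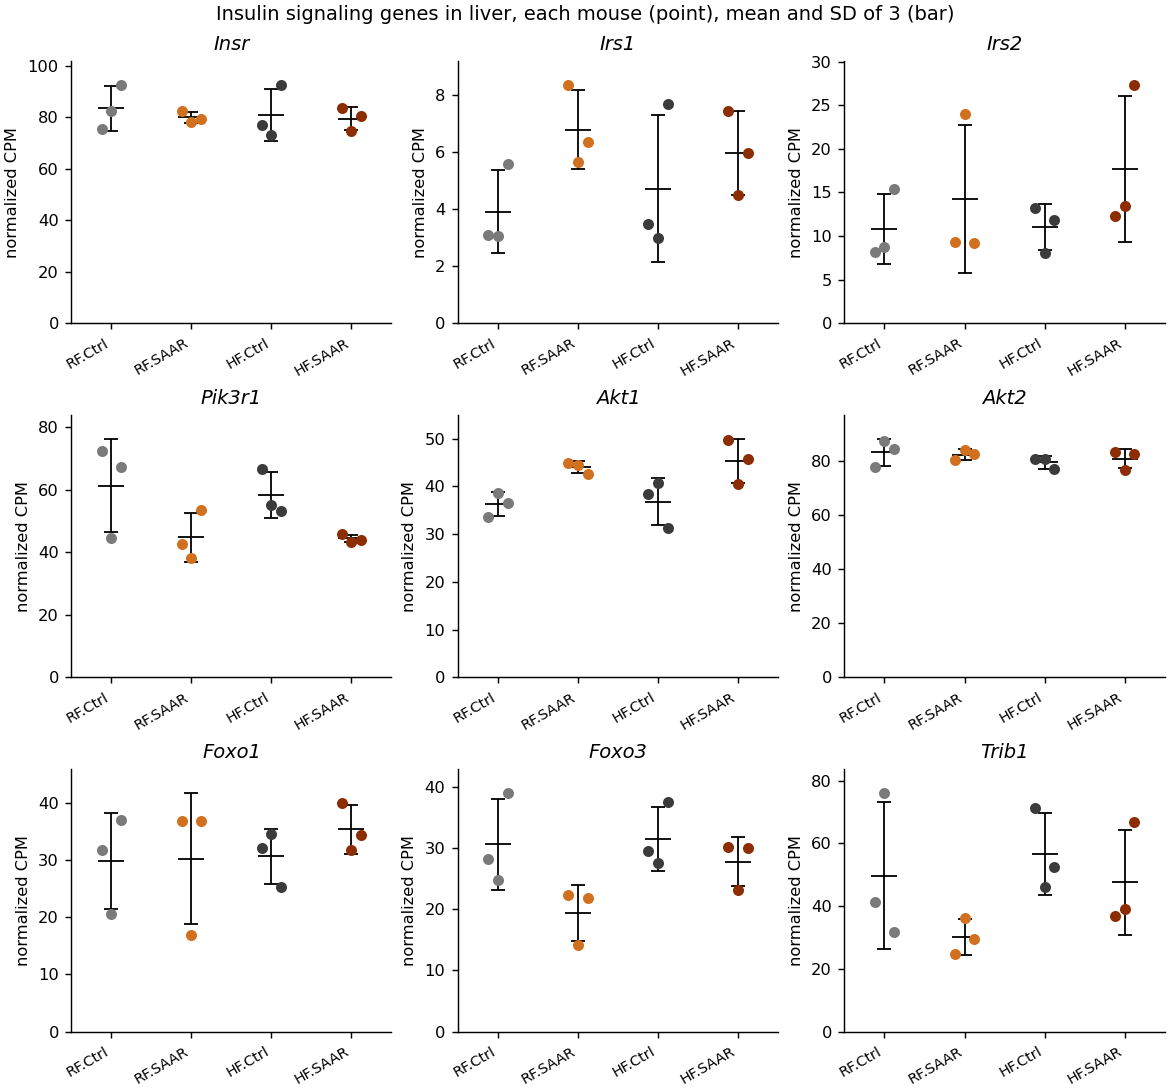
Normalized CPM of the 9 genes in the 4 groups; points are mice, the long tick is the mean and the bars are the SD of 3 mice, with each axis starting at 0. Akt1 is higher in the SAAR groups (means 44.0 and 45.3 against 36.2 and 36.8 CPM), Pik3r1 is lower in them, and Akt2 lies between 76.7 and 87.5 CPM throughout.

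The FOXO factors switch on gluconeogenic and fasting genes when AKT is inactive. Foxo1 (chr3:52268336-52353221, plus strand) was 31.8, 20.5 and 37.0 CPM in RF.Ctrl mice, 36.9, 17.0 and 36.8 in RF.SAAR, 32, 34.5 and 25.3 in HF.Ctrl, and 39.997, 31.7 and 34.3 in HF.SAAR. All groups overlapped, and a low mouse stood apart in both RF groups. Foxo1 differed by 0.12 averaged over fat levels (95% interval -0.33 to 0.56, adjusted p = 0.829). An antisense gene, Gm20402, shares bases with Foxo1. It was not among the quantified genes, so its level could not be analysed.

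Foxo3 (chr10:42181841-42276755, minus strand) was 28.3, 24.8 and 39.1 CPM in RF.Ctrl and 22.3, 14.1 and 21.9 CPM in RF.SAAR. At high fat it was 29.6, 27.6 and 37.6 CPM in HF.Ctrl and 30.2, 23.2 and 30.004 CPM in HF.SAAR. RF.SAAR was the low group, below every mouse of RF.Ctrl and every mouse of HF.SAAR. The log2 fold change was -0.66 at regular fat (SE 0.21, adjusted p = 0.159), -0.18 at high fat (SE 0.21, adjusted p = 0.809) and -0.42 averaged (SE 0.15, adjusted p = 0.117). HF.SAAR exceeded RF.SAAR by 0.52 (SE 0.21, adjusted p = 0.818), whereas HF.Ctrl and RF.Ctrl differed by 0.040 (adjusted p = 0.9996). The test of the difference between fat levels gave 0.48 (SE 0.29, adjusted p = 0.999), so a different response at the 2 fat levels was not shown.

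Trib1 (chr15:59648350-59657099, plus strand) encodes a pseudokinase that, with the ubiquitin ligase Cop1, brings the transcription factor C/EBPα to degradation. Its CPM were 41.4, 76.1 and 31.6 in RF.Ctrl and 24.6, 36.3 and 29.5 in RF.SAAR. At high fat they were 71.4, 46.1 and 52.4 in HF.Ctrl and 36.9, 39.1 and 66.9 in HF.SAAR. As for Foxo3, every HF.SAAR mouse was above every RF.SAAR mouse, a separation that 10.1% of all genes tested showed in either direction. The log2 fold change was -0.72 at regular fat (SE 0.35, adjusted p = 0.413), -0.25 at high fat (SE 0.34, adjusted p = 0.857) and -0.48 averaged (SE 0.24, adjusted p = 0.311). Leaving out each mouse moved the averaged value between -0.65 and -0.26, the latter without RF.Ctrl mouse 2. HF.SAAR vs. RF.SAAR gave 0.66 (SE 0.35, adjusted p = 0.956), HF.Ctrl vs. RF.Ctrl gave 0.19 (SE 0.34, adjusted p = 0.9996) and the difference between fat levels was 0.47 (SE 0.49, adjusted p = 0.999). Trib1-201 held 89.3% and Trib1-202 10.7% of the count, with averaged differences of -0.47 and -0.62 (adjusted p = 0.489 and 0.717).

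**Figure D3:**
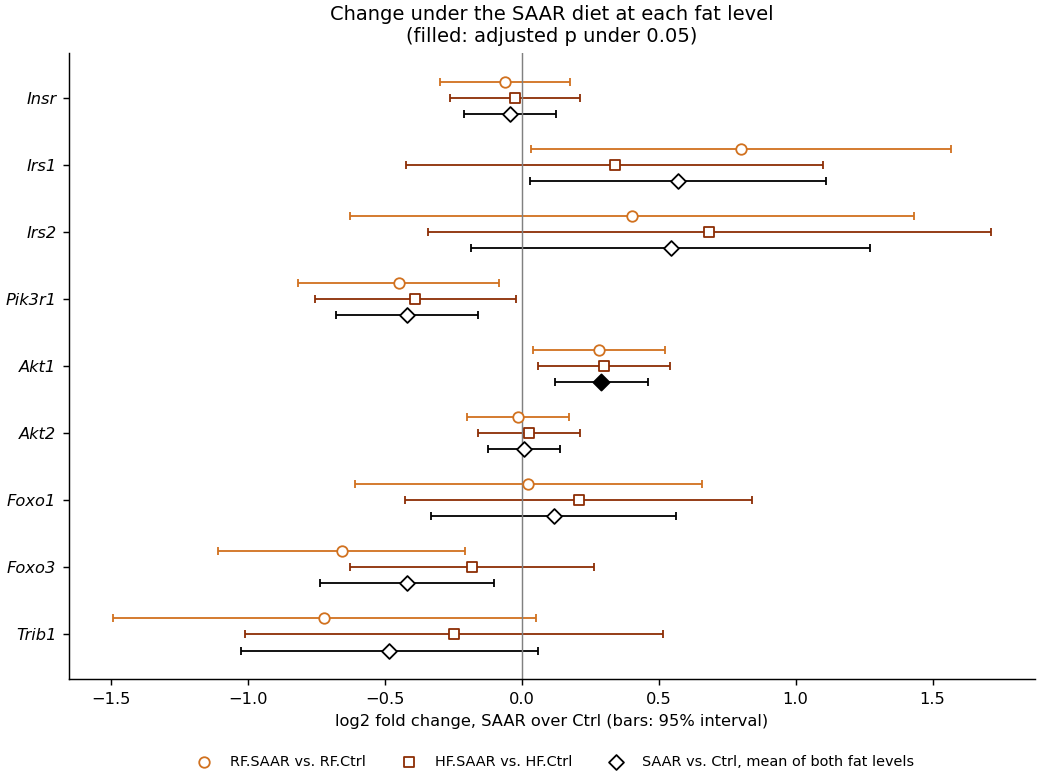
Log2 fold change of SAAR over Ctrl for the 9 genes at regular fat (circles), at high fat (squares) and averaged (diamonds), with 95% intervals of each gene; filled symbols have an adjusted p under 0.05. The averaged value of Akt1, 0.29, is the only filled symbol, and the intervals of Irs1, Irs2, Foxo1 and Trib1 are the widest.

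Fat content moved none of the 9 genes past the threshold, with edgeR or with DESeq2. No gene at all was called in HF.Ctrl vs. RF.Ctrl, where 3.59% of all genes had an unadjusted p under 0.05, and 0.0477% were called in HF.SAAR vs. RF.SAAR, 0.0409% in HF vs. RF averaged over amino acid diets and 0.00682% in the interaction of diet and fat. At an unadjusted p under 0.05 there was Foxo3 in HF.SAAR vs. RF.SAAR, where 5.59% of all genes were, and none of the 9 in HF vs. RF (5.84% of all genes) or the interaction (3.15%). None of the 9 had groups without overlap in HF.Ctrl vs. RF.Ctrl, where 8.51% of all genes did. Among pairs of the 9 over the 12 mice, Pik3r1 and Foxo3 were most alike (Pearson r of log2 CPM = 0.61) and Pik3r1 and Akt1 most opposed (r = -0.64), as a description in which the group differences take part. No transcript of these genes that held at least 10% of its gene's count was called for SAAR at regular fat, at high fat or averaged, where 0.144%, 0.352% and 1.49% of 36098 transcripts were called.

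The rest of the pathway was read from lists of genes by role. These lists were chosen with earlier results of these data known, so their counts beside all genes are a description. Of 13 other receptors and adaptors tested, Grb14 was called and rose, and 12 were not called. Grb14 binds the active insulin receptor and inhibits it, and its CPM were 59.97, 63.5 and 66.4 in RF.Ctrl, 65.4, 66.5 and 74.8 in RF.SAAR, 52.0, 63.9 and 56.7 in HF.Ctrl, and 81.7, 76.1 and 79.5 in HF.SAAR. The HF groups did not overlap, and the log2 fold change was 0.46 at high fat (SE 0.10, adjusted p = 0.0331), 0.12 at regular fat (adjusted p = 0.685) and 0.29 averaged (SE 0.071, adjusted p = 0.0253). The averaged call of Grb14 was lost without any 1 of RF.Ctrl mouse 1 or 2, RF.SAAR mouse 3, HF.Ctrl mouse 1, or HF.SAAR mouse 1 or 3, with adjusted p of at most 0.0758. The call at high fat was lost without RF.Ctrl mouse 2, HF.Ctrl mouse 1 or 3, or any HF.SAAR mouse (at most 0.169). Grb14 was the 1 gene of 13 called higher and none was called lower, beside 3.22% and 3.70% of all genes. The median of the 13 was 0.0017 in the averaged comparison, beside -0.0039 for all genes.

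In 4 further lists, no gene was called under SAAR at either fat level or averaged. These held 6 other PI3K genes, 11 brakes on the pathway, 16 AKT-linked kinases and substrates, and 5 Tribbles relatives and partners. At an unadjusted p under 0.05 in the averaged comparison there were 1, 2, 3 and 0 of them, beside 20.3% of all genes. DESeq2, which called 9.03% of genes there, called Pdpk1 and Sgk1. Insrr, Irs3, Irs4, Socs1, Foxo6 and Pnpla3 were listed but had too few counts to be tested. The PI3K genes with the smallest p in the averaged comparison were Pik3ca, a catalytic subunit (0.25, adjusted p = 0.0895), and Pik3c2a (0.21, adjusted p = 0.253). Among the brakes they were the phosphatases Ptpn1 (0.20, adjusted p = 0.135) and Inppl1 (0.19, adjusted p = 0.165). Among AKT-linked genes they were Pdpk1, the kinase that activates AKT (0.28, adjusted p = 0.0688), and Akt1s1 (0.32, adjusted p = 0.106). Pdpk1 was 22.3 to 30.1 CPM in the 6 Ctrl mice and 30.5 to 37.6 CPM in the 6 SAAR mice, which did not overlap. Among all genes tested, 4.30% separated these mice in either direction. In the Tribbles list they were Cebpa (-0.12, adjusted p = 0.563) and Trib3 (0.21, adjusted p = 0.683). The medians of these 4 lists were 0.15, 0.032, 0.10 and -0.026.

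**Figure D4:**
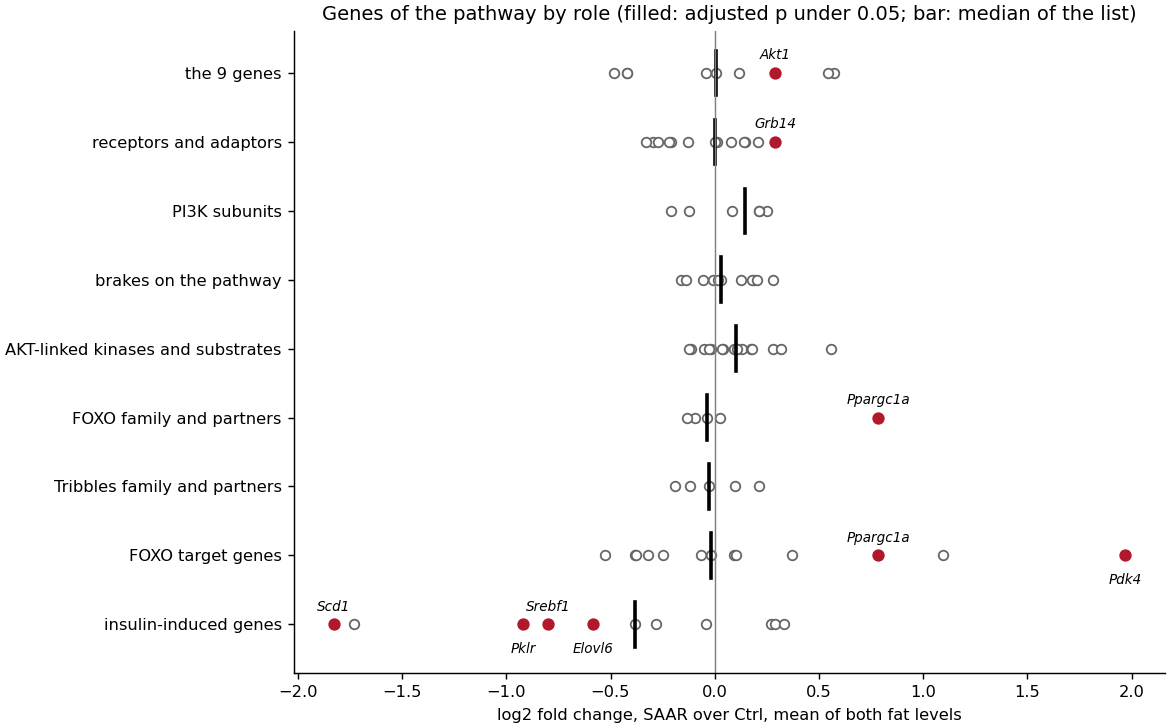
Averaged log2 fold change of SAAR over Ctrl for each tested gene, by role in the pathway; filled points have an adjusted p under 0.05 and the bar is the median of a list. Most points lie near 0, with called genes named, and the insulin-induced genes have a median of -0.38 and 4 called lower. The lists were chosen with earlier results of these data known.

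Of the genes that FOXO factors are known to induce, 2 of 13 were called higher and 0 lower in the averaged comparison, beside 3.22% and 3.70% of all genes, with a median of -0.016. At an unadjusted p under 0.05 there were 6 of the 13, beside 20.3% of all genes, with values above 0 for Ppargc1a, Pdk4 and Pck1 and below 0 for Sesn1, Sesn3 and Bcl6. Ppargc1a, a coactivator of gluconeogenic genes that also stands in the list of FOXO partners, was 6.89 to 9.01 CPM in HF.Ctrl and 14 to 22.9 CPM in HF.SAAR. It was 9.31 to 12.8 CPM in RF.Ctrl and 10.4 to 17.7 CPM in RF.SAAR, which overlapped. Ppargc1a rose by 1.18 at high fat (SE 0.23, adjusted p = 0.0185) and 0.79 averaged (SE 0.16, adjusted p = 0.0107), and its value at regular fat was 0.39 (adjusted p = 0.515). Pdk4, which restrains glucose oxidation, was 4.5 to 8.2 CPM in RF.Ctrl while RF.SAAR mice held 10.8 to 39.8 CPM. At high fat it was 4.45 to 6.69 CPM in HF.Ctrl and 7.96 to 32.3 CPM in HF.SAAR, so that SAAR and Ctrl mice did not overlap at either fat level. It rose by 1.97 averaged (SE 0.41, adjusted p = 0.0226), a call lost without RF.Ctrl mouse 1 or 2 or any HF.Ctrl mouse (adjusted p up to 0.0657). The call of Ppargc1a at high fat was lost without HF.Ctrl mouse 1 or 3 or HF.SAAR mouse 1 (adjusted p up to 0.0961). Of 5 FOXO relatives and partners tested, 1 was called in the averaged comparison, again Ppargc1a, beside 6.92% of all genes.

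Genes that insulin is known to induce included 4 of 11 called lower and 0 higher in the averaged comparison, beside 3.70% and 3.22% of all genes, with a median of -0.38. At regular fat 1 of the 11 was called (Elovl6) with a median of -0.53, beside 1.49% of all genes. At high fat 0 were called with a median of -0.28, beside 1.97% of all genes. In either direction, 6 and 5 of the 11 had an unadjusted p under 0.05, beside 13.6% and 12.4% of all genes. Log2 values were above 0 for 3 of the 11 at regular fat and for 4 at high fat, Acaca and Me1 among the latter. DESeq2 called Srebf1, Acly, Scd1, Elovl6, Thrsp and Pklr lower at regular fat, Srebf1 lower at high fat and none of the 11 in the difference between fat levels. The difference between fat levels was above 0 for 11 of 11, with a median of 0.49, but it was called for 0 of them and 1 had an unadjusted p under 0.05. Srebf1 encodes the transcription factor through which insulin raises lipid synthesis. It was 70.9 to 135 CPM in the 6 Ctrl mice and 42.6 to 65.2 CPM in the 6 SAAR mice, without overlap, as for 4.30% of all genes. Srebf1 fell by 0.80 on the log2 scale (SE 0.16, adjusted p = 0.0121). Scd1, a fatty acid desaturase, was 992 to 1245 CPM in RF.Ctrl, while RF.SAAR mice held 114 to 401 CPM. At high fat it was 69.1 to 90.6 CPM in HF.Ctrl and 17.6 to 41.1 CPM in HF.SAAR, so every SAAR mouse was below every Ctrl mouse of its fat level. It fell by 1.83 with SAAR (SE 0.33, adjusted p = 0.0118), and HF mice were below RF mice by a log2 difference of -3.38 averaged over amino acid diets (SE 0.35, adjusted p = 0.0203). This difference in fat was no longer called without RF.Ctrl mouse 1 or 3, any HF.Ctrl mouse or HF.SAAR mouse 1 (adjusted p up to 0.103). The elongase gene Elovl6 was 81.1 to 95.2 CPM in RF.Ctrl mice and 34.7 to 61.2 CPM in RF.SAAR mice, without overlap, and it overlapped at high fat. It fell by 0.59 (SE 0.13, adjusted p = 0.0199), of which the value at regular fat was -0.87 (adjusted p = 0.0404) and at high fat -0.30 (adjusted p = 0.598). The call at regular fat was lost without any RF.Ctrl mouse, RF.SAAR mouse 1 or 2, HF.Ctrl mouse 1 or HF.SAAR mouse 3 (adjusted p up to 0.137). Pklr, liver pyruvate kinase, was 212 to 424 CPM in the Ctrl mice and 108 to 220 CPM in the SAAR mice and fell by 0.92 (SE 0.19, adjusted p = 0.0161).

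**Figure D5:**
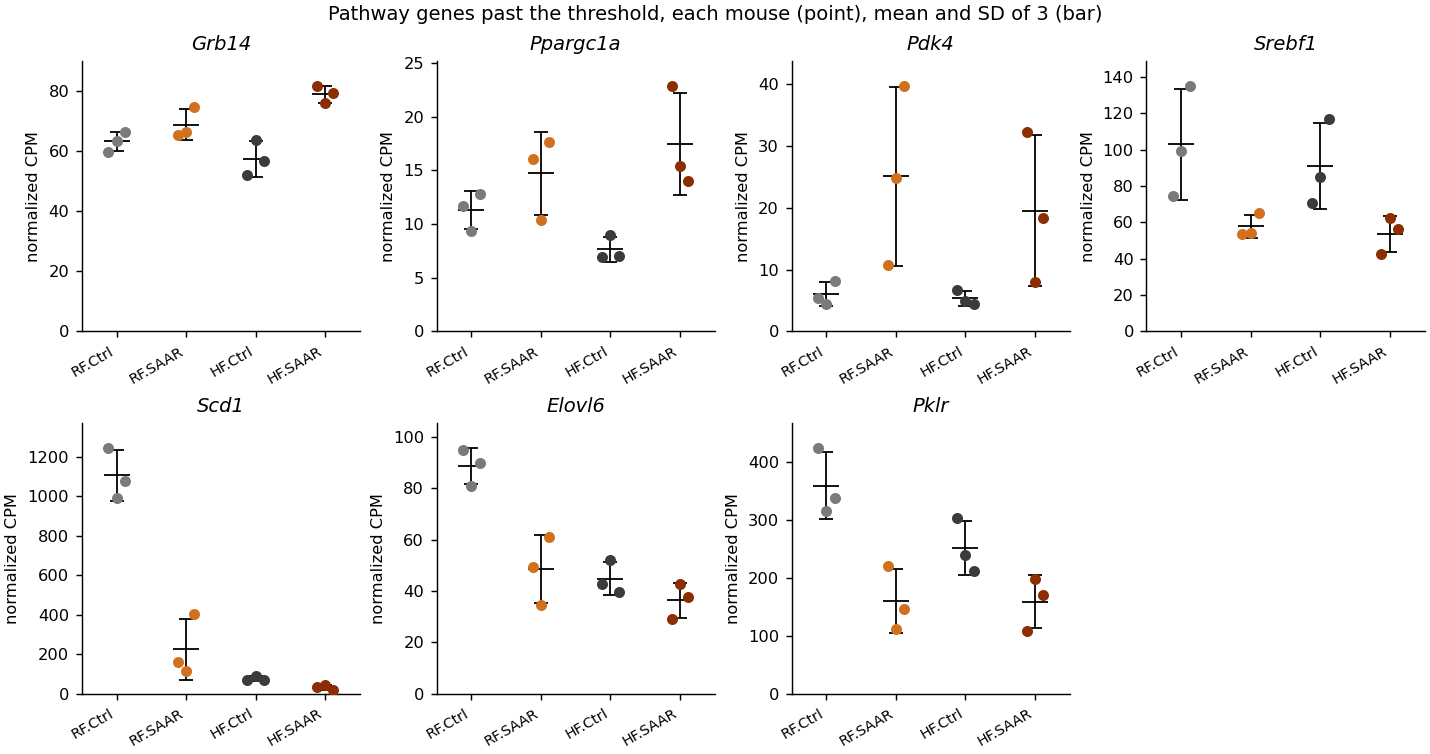
Normalized CPM of the 7 other pathway genes that passed the threshold in a SAAR comparison; points are mice, the long tick is the mean and the bars are the SD of 3 mice, with axes from 0. Grb14, Ppargc1a and Pdk4 are higher under SAAR and Srebf1, Scd1, Elovl6 and Pklr lower, and Scd1 is also far lower at high fat.

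Without the 5 mice above 1000 acinar CPM, which leaves 1 mouse in HF.Ctrl and 1 in HF.SAAR, Srebf1 alone among these 7 genes was called in the averaged comparison (-1.25, adjusted p = 0.00706). The others kept their direction, with 1.05 for Ppargc1a, 2.42 for Pdk4, 0.30 for Grb14, -1.70 for Scd1, -0.64 for Elovl6 and -1.01 for Pklr.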

How the data were processed

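RNA of 12 livers, 3 per group, was read as paired-end polyA libraries. The authors trimmed reads with cutadapt and quantified an Ensembl mouse transcriptome with kallisto, and the deposited estimated counts and TPM values are per transcript, with effective lengths estimated for each mouse. Of 118489 transcripts, 116816 were matched to 36047 genes of a GENCODE annotation of GRCm38. The 1673 unmatched transcripts held 1.08% of counts and were left out. Estimated counts were summed per gene and rounded, genes with low counts were removed with filterByExpr, libraries were normalized by TMM, and all 4 groups entered 1 quasi-likelihood fit in edgeR 4.0.16 (R 4.3.3, limma 3.58.1), tested on simulated data. P-values were adjusted by the Benjamini-Hochberg method over all 14670 genes, or 36098 transcripts, with a threshold of 0.05. DESeq2 1.42.0 was an alternative. The common biological coefficient of variation was 0.215. The genes and lists were chosen with earlier results of these data known. Besides the 9 genes, those called in a SAAR comparison, or the 2 of smallest p in a list without calls, were named. The labels give no strand setting and number no replicates, so mice are numbered in accession order. The labels hold fat content and amino acid diet under each other's field names. The genes whose levels followed Akt1 most closely are not reported here.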

Additional observations from a re-analysis of the deposited data

How the results depend on the processing

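Of the 9 genes, 1 was called in the averaged SAAR comparison, and the count was 2 with at least 10 counts in every mouse or with DESeq2 (Akt1 and Pik3r1 in both). Over all genes, 512 of 12368 were called higher and 564 lower with at least 10 counts in every mouse, and DESeq2 called 9.03%. The count for the 9 genes was 0 with the acinar level as a covariate, where 545 of all 14670 genes were called higher and 565 lower. An alternative chosen after seeing the data left out the mice above 1000 acinar CPM and kept 7. Its averaged log2 value was 0.44 for Akt1 and -0.27 for Pik3r1. Leaving out each mouse gave 0 to 1 of the 9 genes called. With library size alone, Akt1 was the 1 gene of the 9 called in HF.SAAR vs. HF.Ctrl, where 639 of all genes were called higher and 80 lower. That scaling moved the median of all genes in the averaged comparison by 0.16 on the log2 scale and gave 2175 genes higher and 274 lower, in place of 472 and 543. The averaged Akt1 value was called in 5 of 8 other ways of processing, with adjusted p from 0.00265 to 0.165, and Pik3r1 in 4 of 8. Some of these ways called Pik3r1 without Akt1, so the 1 gene called was not always Akt1. The cause of these changes was not tested. No paired analysis was possible because the labels number no replicates.

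None of the values that changed sign was called in either direction. With library size alone, Insr was 0.10 (RF), 0.14 (HF) and 0.12 (averaged), Akt2 was 0.15 (RF), Foxo3 was -0.0082 (HF.Ctrl vs. RF.Ctrl) and Cebpa was 0.044. With effective length offsets, Akt2 was 0.013 (RF), Insr 0.071 (HF), Foxo3 -0.0047 (HF.Ctrl vs. RF.Ctrl) and Ptpn1 -0.17. With the acinar covariate, Insr was 0.0055 (HF). Without the mice above 1000 acinar CPM, Irs1 was -0.064 (HF), Trib1 -0.031 (HF.Ctrl vs. RF.Ctrl) and Trib3 -0.21. Leaving out each mouse gave, at regular fat, -0.13 to 0.018 for Insr, -0.21 to 0.74 for Irs2, -0.0605 to 0.024 for Akt2 and -0.19 to 0.31 for Foxo1. It gave -0.093 to 0.082 for Insr at high fat, and averaged -0.078 to 0.010 for Insr, -0.018 to 0.025 for Akt2 and -0.83 to 0.11 for Trib1-202. For HF.Ctrl vs. RF.Ctrl it gave -0.10 to 0.25 for Foxo3 and -0.054 to 0.63 for Trib1.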
